A study of Arabidopsis thaliana with 12 samples.

Results

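LTI78 (AT5G52310), LTI65 (AT5G52300), KIN1 (AT5G15960) and COR47 (AT1G20440) are stress-induced genes of Arabidopsis thaliana, and their transcripts were followed here over 6 time points. All probes whose systematic name begins with one of these locus codes were taken. These were 12 of the 15013 probes on the array, 3 for each gene, and the 4 genes are 4 of 5154 named transcripts. All 4 locus codes were found in the gene table of assembly TAIR10.1, where LTI65 directly precedes LTI78 on chromosome 5. KIN1 lies on chromosome 5 beside KIN2, and COR47 on chromosome 1 beside ERD10. KIN2 and ERD10 have no probe on this array. KIN1 and KIN2 are close to identical in sequence, so how much of the KIN1 signal comes from KIN2 RNA was not tested.

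The study measured leaf RNA on 12 single-colour Agilent arrays built mainly for long non-coding RNAs. Its plants were of the Columbia (Col-0) ecotype, 30 days old, and raised in chambers held at 22 °C, humidity of 65% and a light intensity of 145 µmol/m2/s, in cycles of 8 h light and 16 h dark. Sample titles give 2 replicates at each of 6 time points, of which 0, 4 and 8 h carry the word light and 12, 16 and 20 h the word dark. Continuous light is named in the series title, whereas the sample titles and the growth protocol name light and dark, so light and dark are used below as names from the titles only. No plant was described as cold-treated or otherwise stressed. The labels do not say whether the 2 replicates were separate plants, and p-values therefore measure the spread between arrays, which may be technical.

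LTI78, also called RD29A, and LTI65, also called RD29B, encode related, very hydrophilic proteins that accumulate under cold, drought and salt. The C-repeat binding factors (CBFs), which are induced by cold, activate genes of this kind through the dehydration-responsive element, and abscisic acid (ABA) activates them through a separate promoter element. The LTI78 promoter is known to respond by both routes, and that of LTI65 mainly to ABA. KIN1 encodes a small protein induced by cold and ABA, and COR47 encodes an acidic dehydrin, a protein thought to protect membranes and enzymes during water loss. The circadian clock is known to limit cold-regulated expression to certain hours of the day.

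A level is given throughout as the log2 of the processed signal minus the 75th percentile of the array, so 1 unit is a doubling and 0 is that percentile. Probes differ in how well they bind, so levels were compared between time points of the same probe, and not between genes. In whole leaf RNA, fewer cells that express a gene and less RNA per cell cannot be told apart. None of the 8 tissue marker genes chosen for a check of the leaf label is on the array. Between 26.5% and 41.2% of probes were well above background on 11 arrays and 52.2% on the second 16 h array. The 2 arrays of 16 h also differed most from each other, with a correlation of 0.909 between replicates against 0.955 to 0.98 at the other time points. The arrays of 0 and 4 h share slide 1 and those of 8, 12, 16 and 20 h share slide 2, so slide and time cannot be told apart where 0 or 4 h is compared with a later time point.

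All 4 genes varied over the 6 time points, as read from the brightest probe of each. Each passed limma's F test after Benjamini-Hochberg adjustment over the 3302 transcripts tested, of which 14.7% passed. The share was larger among the 1520 transcripts above background on all 12 arrays, as these 4 probes were: 688 passed when tested alone. By these probes LTI78 had the widest course, with a 74.2-fold difference between its highest and lowest time point. It was 7.42-fold for KIN1, 4.06-fold for COR47 and 4.02-fold for LTI65. The order below LTI78 depended on the probe. The second and dimmest LTI65 probes spanned 8.94-fold and 10.1-fold, and those of COR47 6.64-fold and 3.69-fold. The highest mean fell at 16 h for LTI78, KIN1 and COR47, and at 0 h for the brightest LTI65 probe. From 0 to 4 h, 1 of the 4 genes fell (LTI78), as did 0.485% of the transcripts tested. From 4 to 8 h, 1 of the 4 fell (LTI78), against 0.515% of transcripts. From 8 to 12 h, 1 of the 4 rose by its brightest probe (LTI78), against 2.09% of transcripts, and COR47 missed the threshold there (adjusted p 0.07). From 12 to 16 h, 3 of the 4 rose (LTI78, KIN1 and, at the threshold, COR47), against 6.15% of transcripts. From 16 to 20 h, 2 of the 4 fell (LTI78 and KIN1), against 5.63% of transcripts. The plot of levels by time point shows these courses.

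**Figure D1:**
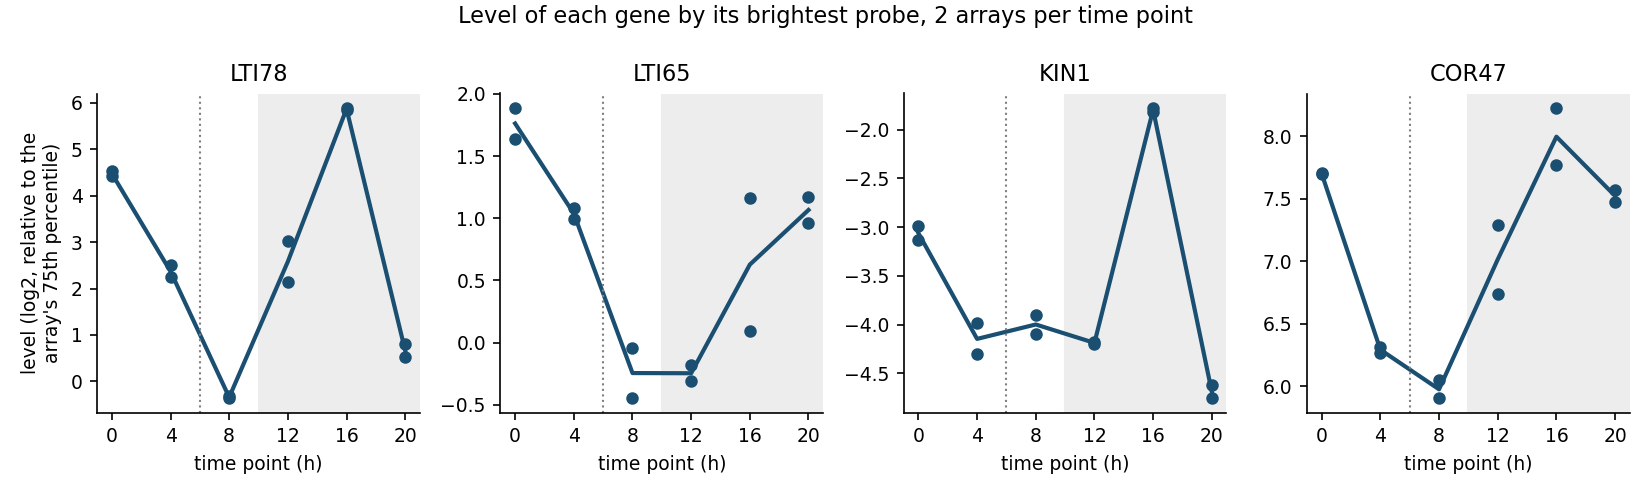
Level of LTI78, LTI65, KIN1 and COR47 (log2, relative to the array's 75th percentile) by time point in hours, from the brightest probe of each gene. Points are single arrays (2 per time point), lines join their means, shading marks the time points titled dark, and the dotted line separates the 2 slides. Each panel has its own scale; LTI78 spans 6.21 log2 units, with highs at 0 and 16 h and lows at 8 and 20 h.

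LTI78 had 2 high and 2 low phases in the sampled day. Its level was 4.53 and 4.43 on the 2 arrays of 0 h, 2.50 and 2.24 at 4 h, -0.36 and -0.32 at 8 h, 2.14 and 3.02 at 12 h, 5.89 and 5.85 at 16 h, and 0.52 and 0.81 at 20 h. Both 16 h arrays lay above all others and both 8 h arrays below all others, and the arrays of 4 and 12 h overlapped. In descending order the means ran 16, 0, 12, 4, 20 and 8 h, and each time point differed from the next beyond the spread except 12 h from 4 h. The F test gave an adjusted p of 5.9e-05, and the 16 h mean exceeded the 8 h mean by 6.21 ± 0.29 (log2, SE, n = 2 arrays each). Within slide 2 alone, which holds both of these time points, the F test gave an adjusted p of 0.003.

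The rise and fall of LTI78 around 16 h were its steepest changes. Its level was 7.58-fold higher at 12 h than at 8 h (log2 difference 2.92 ± 0.29 SE, adjusted p 0.0026). At 16 h it was higher than at 12 h by another 9.79-fold (3.29, adjusted p 0.00072). By 20 h it had fallen 37-fold below the 16 h level (-5.21, adjusted p 0.00012). These 3 steps lie within slide 2. The median of all tested transcripts moved by 0.36 from 12 to 16 h, so the LTI78 step exceeded that median by 2.93. With arrays scaled on all probes the median moved by -0.70 and LTI78 by 2.23. Either scaling shifts all transcripts of an array alike, so the excess over the median is the same by construction.

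The earlier fall of LTI78 was less firmly measured. LTI78 was 4.31-fold lower at 4 h than at 0 h (-2.11 ± 0.29 SE, adjusted p 0.021). Among slide 1 arrays alone the same difference had an adjusted p of 0.11, and leaving out any 1 of the arrays of 0, 4 or 8 h gave 0.056 to 0.21. It was 6.55-fold lower at 8 h than at 4 h (-2.71, adjusted p 0.0039), a step that also crosses from slide 1 to slide 2 and had an adjusted p of 0.055 without the first 4 h array. LTI78 at 20 h and LTI78 at 0 h, the last and the first time point, differed 14.1-fold with 0 h the higher, again across slides.

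The other 2 LTI78 probes followed the brightest one. Over the 12 arrays their levels correlated with it at r = 0.909 and 0.913, a description of points that share arrays and scaling. Their highest mean was also at 16 h, by 16.1-fold over 8 h for the second probe and by 35.6-fold over 20 h for the dimmest. Each was well above background on only 1 of 2 arrays at 8 h and at 20 h, and the spread there was wide. The F test still passed for both (adjusted p 0.035 and 0.023), whereas of their steps only the fall from 16 to 20 h did (0.021 and 0.01).

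LTI65, the tandem neighbour, gave 2 different courses depending on the probe. Its brightest probe had levels of 1.89 and 1.64 at 0 h, 1.00 and 1.08 at 4 h, -0.04 and -0.45 at 8 h, -0.31 and -0.18 at 12 h, 0.10 and 1.16 at 16 h, and 1.17 and 0.96 at 20 h. The 0 h arrays were highest and those of 8 and 12 h lowest, while the 2 arrays of 16 h were spread over the range of their neighbours. In descending order the means ran 0, 20, 4, 16, 8 and 12 h, with no separation beyond the spread among 20, 4 and 16 h or between 8 and 12 h. The 0 h mean exceeded the 12 h mean by 2.01 ± 0.34 (log2, SE), or 4.02-fold, and the F test gave an adjusted p of 0.023. No step between consecutive time points passed for this probe, with adjusted p-values of 0.13 to 1.

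The call on the brightest LTI65 probe moved to either side of the threshold with the arrays used. With differences within slides only the F test gave an adjusted p of 0.073, and within slide 2 alone 0.19. Leaving out 1 array gave 0.053 to 0.08 for 9 of the 12 arrays, namely both arrays of 0, 4, 12 and 20 h and the second of 8 h. Without the first or the second 16 h array it gave 0.0032 and 0.0049, without both 0.0039, and with array weights 0.0047.

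The second LTI65 probe was high at 12 and 16 h and low at the 4 other time points. Its level was -1.32 and -1.47 at 0 h, -1.12 and -1.04 at 4 h, -1.75 and -1.80 at 8 h, 0.57 and 1.14 at 12 h, 1.40 and 1.38 at 16 h, and -1.21 and -1.29 at 20 h. Its 4 arrays of 12 and 16 h lay above the other 8 with no overlap. The dimmest LTI65 probe had -4.45 and -4.18 at 0 h, -4.27 and -4.06 at 4 h, -4.65 and -4.62 at 8 h, -2.18 and -1.60 at 12 h, -1.31 and -1.27 at 16 h, and -4.29 and -4.59 at 20 h, with the same 4 arrays on top. These 2 probes rose 6.19-fold and 6.69-fold from 8 to 12 h (adjusted p 0.001 and 0.0015) and fell 6.22-fold and 8.9-fold from 16 to 20 h (0.00057 and 0.00045). Neither passed from 12 to 16 h (0.15 and 0.14). Their F tests had adjusted p-values of 0.00029 and 0.00028, and of 0.0083 and 0.0073 within slide 2.

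All 3 LTI65 probes were marked well above background on all 12 arrays. The dimmest had low signals, 9.2 to 20.8, at 0, 4, 8 and 20 h, and whether background shaped its course was not tested. The second and dimmest probes tracked each other at r = 0.993 over the 12 arrays, and the brightest correlated with them at -0.289 and -0.325. The within-array log ratio of the brightest to the second probe varied over time (exact permutation F test, p = 0.0012, 0.0016 after adjustment over 11 ratios), with the 0 h mean 4.25 ± 0.36 (log2, SE) above the 12 h mean. Against the dimmest probe the same comparison gave 4.43 ± 0.38 and an exact p of 0.00087, adjusted to 0.0014. The ratio of the second to the dimmest probe did not pass (exact p = 0.082), although within slide 2 its exact p was 0.0095, the smallest possible there, with time point means that differed by at most 0.52. Which probe follows the LTI65 messenger RNA was not tested, since the probe sequences were not used here, and both courses are given below. The plot of all 12 probes shows them side by side.

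**Figure D2:**
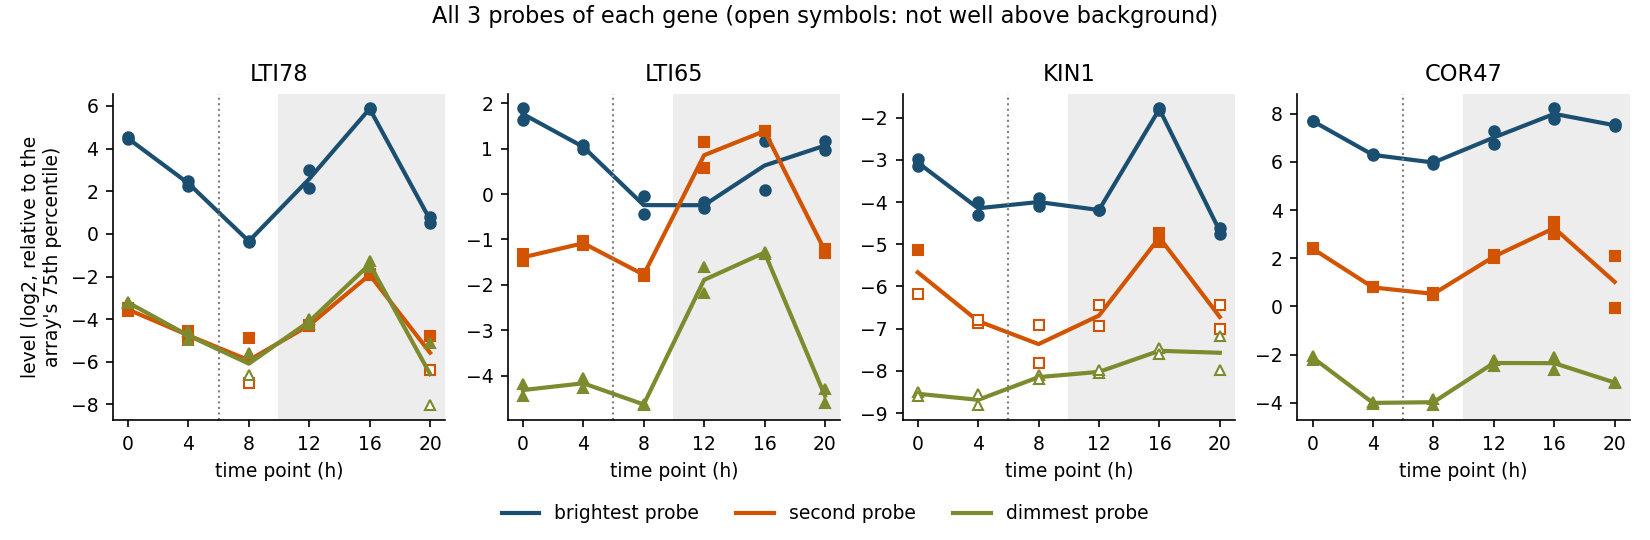
Level of all 3 probes of each gene (log2, relative to the array's 75th percentile) by time point in hours. Filled symbols are arrays where the probe was well above background and open symbols those where it was not; lines join the means of 2 arrays, shading marks time points titled dark, and the dotted line separates the slides. The LTI65 panel shows the brightest probe highest at 0 h and the other 2 probes highest at 12 and 16 h.

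The brightest LTI78 probe did not keep a constant ratio to any LTI65 probe. Neither did the brightest LTI65 probe to the other LTI65 probes, so a changing ratio alone need not mean a difference between genes. The log2 signal of LTI78 minus that of LTI65 on the same array needs no scaling between arrays, and its change over time was tested by an exact permutation F test over 10395 arrangements of the arrays into pairs. Against the brightest LTI65 probe the ratio was 2.64 and 2.79 at 0 h, 1.50 and 1.16 at 4 h, -0.32 and 0.13 at 8 h, 2.45 and 3.20 at 12 h, 5.79 and 4.69 at 16 h, and -0.65 and -0.16 at 20 h. The 16 h arrays were highest, and those of 8 and 20 h lowest and overlapping. The ratio was 50.1-fold higher at 16 h than at 20 h (5.65 ± 0.44, log2, SE), with an exact permutation p of 0.00067, adjusted to 0.0012 over 11 ratios. Within slide 2 the exact p was 0.019, where the smallest possible was 0.0095.

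Against the second LTI65 probe the ratio was instead highest at 0 h. It was 5.84 and 5.90 at 0 h, 3.62 and 3.28 at 4 h, 1.39 and 1.48 at 8 h, 1.58 and 1.88 at 12 h, 4.49 and 4.48 at 16 h, and 1.73 and 2.10 at 20 h. The arrays of 8, 12 and 20 h formed the low end, with 12 h overlapping 20 h. The 0 h mean exceeded the 8 h mean by 4.44 ± 0.17 (log2, SE; exact p = 0.00038, adjusted 0.001), a difference between slides, and within slide 2 the exact p was 0.038. The dimmest LTI65 probe gave 4.50 ± 0.26 for the same comparison, with an exact p of 9.6e-05, the smallest the design allows, and 0.0095 within slide 2. From 8 to 12 h LTI78 rose by 2.92 and LTI65 by 2.63 and 2.74 on these probes (log2). From 12 to 16 h LTI78 rose by 3.29, against differences of 0.53 and 0.60 for LTI65 that did not pass.

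A difference between dark and light time points was not resolved in the pair. The ratio of LTI78 to the brightest LTI65 probe averaged 2.56 ± 2.57 at the dark and 1.32 ± 1.27 at the light time points (SD, n = 6 arrays each; exact permutation test, two-sided, p = 0.32, 0.54 adjusted over 11 ratios). Against the second and the dimmest LTI65 probe the difference had the other sign, -0.88 and -0.96, and did not pass either (exact p = 0.39 and 0.33). The 3 panels of ratios show the dependence on the probe, as the ratio at 0 h stands below that at 16 h in the first and above it in the others.

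**Figure D3:**
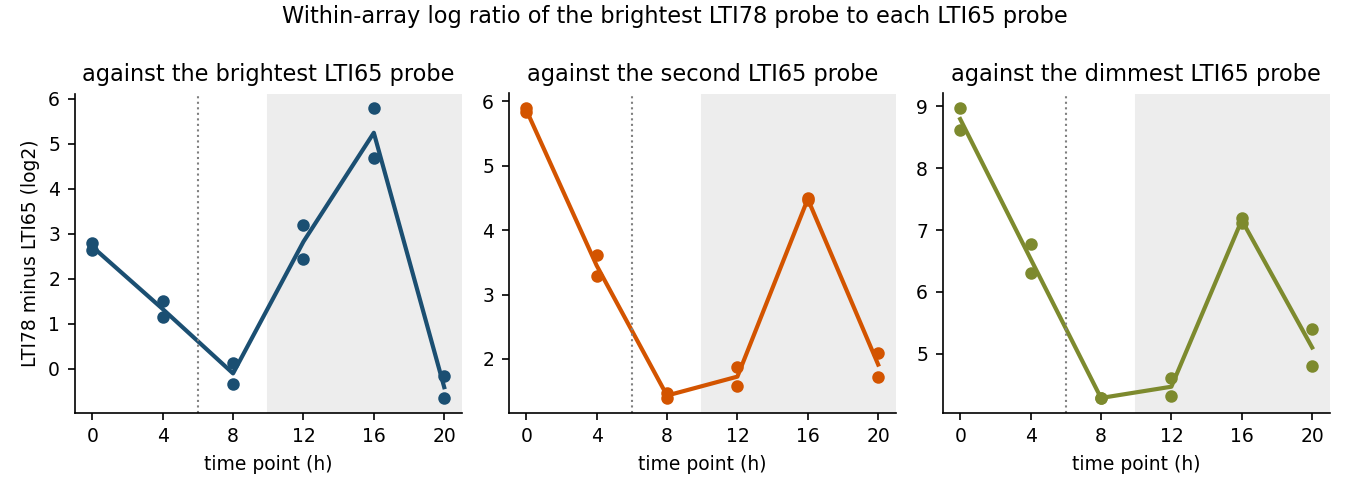
Within-array log2 ratio of the brightest LTI78 probe to each of the 3 LTI65 probes, by time point in hours. Points are single arrays, lines join the means of 2 arrays, shading marks time points titled dark, and the dotted line separates the slides. The level of a ratio depends on the probes and is not comparable between panels; its change over time is. All 3 panels fall towards 8 h, have a high at 16 h and are lower again at 20 h.

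KIN1 rose at a single time point on slide 2. Its brightest probe had levels of -2.99 and -3.14 at 0 h, -4.31 and -3.99 at 4 h, -4.10 and -3.90 at 8 h, -4.20 and -4.18 at 12 h, -1.81 and -1.78 at 16 h, and -4.62 and -4.76 at 20 h. Both 16 h arrays stood clear of all others, followed by those of 0 h, and the arrays of 4, 8 and 12 h overlapped. The probe was marked well above background on all 12 arrays, but its signals were low, 8.75 to 26.5, at 4, 8, 12 and 20 h. Whether background shaped its course there was not tested. The F test gave an adjusted p of 0.00047, and 0.0074 within slide 2. KIN1 was 5.25-fold higher at 16 h than at 12 h (2.39 ± 0.20, log2, SE; adjusted p 0.00046) and 7.42-fold lower at 20 h than at 16 h (-2.89, adjusted p 0.00025). From 8 to 12 h, where LTI78 rose, KIN1 had a difference of -0.19 (adjusted p 0.7). Its difference from 0 to 4 h, -1.08, had an adjusted p of 0.055.

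When arrays were scaled on all probes, 2 KIN1 calls were lost: its F test had an adjusted p of 0.082 and the step from 12 to 16 h 0.086. Relative to the median of all transcripts that step was 2.03, a value that the choice between these 2 scalings cannot change, and 0.93 with normexp and quantile normalization. There its value was 0.89 (adjusted p 0.0015), and the difference from 16 to 20 h was -1.04 (adjusted p 0.00058). The second KIN1 probe was well above background on 3 arrays, both of 16 h and the second of 0 h. Its 16 h signal was at least 3.26-fold above that of 4 h, at least 2.72-fold above 8 h, at least 2.7-fold above 12 h and at least 2.09-fold above 20 h. The bound sets the 16 h mean against the lowest signal that counts as above background on the dim arrays, or the probe's own signal where that was higher. On none of the 12 arrays was the third KIN1 probe well above background.

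The ratio of LTI78 to KIN1 also changed over time (exact permutation p = 0.0015, adjusted 0.0018, and 0.0095 within slide 2). It was 16.1-fold higher at 16 h than at 8 h, and whether the low KIN1 signals at 8 h shaped it was not tested. Both genes had their highest mean at 16 h, and the course of LTI78 was the wider on these probes.

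COR47 by its brightest probe had a shallower course than LTI78, high at 0, 16 and 20 h and low at 4 and 8 h. Its level was 7.71 and 7.70 at 0 h, 6.27 and 6.32 at 4 h, 6.05 and 5.90 at 8 h, 6.74 and 7.29 at 12 h, 8.23 and 7.77 at 16 h, and 7.57 and 7.47 at 20 h. The arrays of 4 and 8 h lay below all others, and the means of 16 and 0 h, and those of 0 and 20 h, did not differ beyond the spread, nor did those of 4 and 8 h. The 16 h mean exceeded the 8 h mean by 2.02 ± 0.25 (log2, SE), or 4.06-fold, and the F test gave an adjusted p of 0.0059. Within slide 2 the F test gave 0.058, and with scaling on all probes 0.14.

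After 16 h, where LTI78 and KIN1 fell, no COR47 probe passed. The difference from 16 to 20 h was -0.47 by the brightest probe (adjusted p 0.23). It was -2.23 by the second (0.052) and -0.805 by the dimmest (0.068). Of the alternatives other than leaving out 1 array, the step passed under 2, stayed uncalled under 10 and changed sign under 1. By the brightest probes, the ratio of LTI78 to COR47 was 26.6-fold higher at 16 h than at 20 h (exact permutation p = 9.6e-05, adjusted 0.00053). KIN1 over COR47 differed 5.35-fold between the same time points (exact p = 0.00067, adjusted 0.0012, and 0.019 within slide 2). The rise of COR47 from 12 to 16 h (0.98, adjusted p 0.047) was at the threshold. It was 0.62 above the median of all transcripts, it had an adjusted p of 0.055 to 0.17 on leaving out any 1 array other than the second of 12 h, and its value was -0.08 with scaling on all probes and -0.01 by the dimmest COR47 probe. The steps from 0 to 4 h (-1.41) and from 8 to 12 h (1.04) had adjusted p-values of 0.052 and 0.07. Each of them passed under 8 of 14 alternatives other than leaving out 1 array, among them quantile normalization (-1.70 and 1.56, adjusted p 0.019 each) and normexp (-1.69 and 1.62, adjusted p 0.0017 and 0.00073). Within their own slides they gave 0.14 and 0.26.

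The 3 COR47 probes correlated with each other at r = 0.759 to 0.79 over the 12 arrays. They differed at the late time points. The second probe had 3.49 and 3.01 at 16 h and 2.08 and -0.05 at 20 h, so that its 20 h arrays were far apart, and its F test had an adjusted p of 0.055. The dimmest probe passed (0.0036), had its highest mean at 0 h and its lowest at 4 h, and had a rise from 8 to 12 h of 3.09-fold (adjusted p 0.013).

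Between dark and light time points, 2 of the 4 genes were higher on average in dark, LTI78 and COR47, as were 4.6% of the transcripts tested. Here and below, the limma p-values for dark minus light rest on replicate arrays, not on the spread among time points. Means of LTI78 ran from 0.66 to 5.87 over the dark and from -0.34 to 4.48 over the light time points. All dark arrays are on slide 2, and the light arrays of 0 and 4 h on slide 1. Of the 1520 transcripts above background on all 12 arrays, 207 were higher in dark when tested alone. LTI78 averaged 3.04 at the dark and 2.17 at the light time points, a difference of 0.87 ± 0.17 (log2, SE; adjusted p 0.017). COR47 averaged 7.51 in dark and 6.66 in light (0.86 ± 0.14, adjusted p 0.0096). LTI65 by its brightest probe had 0.48 in dark and 0.85 in light (-0.37 ± 0.20, adjusted p 0.29; -0.55 and 0.039 without the second 16 h array; 0.73 and 0.47 on slide 2 alone), and KIN1 had -3.56 in dark and -3.74 in light (0.18 ± 0.11, adjusted p 0.37). By its second and dimmest probes LTI65 was higher in dark by 1.75 ± 0.13 and 1.83 ± 0.14 (adjusted p 2e-04 and 3e-04). The median difference of the 4 genes was 0.52, against -0.085 over all transcripts tested.

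For LTI78 and KIN1 the sign of this average depended on the 16 h arrays. Without the 2 arrays of 16 h the LTI78 difference was -0.55 (adjusted p 0.12) and that of KIN1 was -0.70 (adjusted p 0.02). The LTI78 call also ended, at adjusted p-values of 0.051 to 0.062, on leaving out 1 array of 6, namely the second of 0 h, either of 4 h, either of 8 h or the second of 20 h, and it gave 0.2 with scaling on all probes. COR47 kept its call on leaving out any 1 array (0.0074 to 0.042), and with scaling on all probes it gave 0.23. Within slide 2, where only the 8 h arrays stand for light, LTI78 gave 3.38 with an adjusted p of 0.006 and COR47 1.54 with an adjusted p of 0.067. The ratio of the brightest LTI65 probe to COR47 fell by 1.22 in dark relative to light (log2, exact permutation p = 0.0022, adjusted 0.024 over 11 ratios). Arrays of the same time point were exchanged as if independent in this test. Its p-value may therefore be too small for a difference between dark and light time points. The second and dimmest LTI65 probes, whose ratio to COR47 was not tested, were higher in dark by 1.75 and 1.83, against 0.86 for COR47.

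Few other cold genes were on the array. Of 15 further cold and dehydration genes 2 had probes, COR15A and COR15B, which encode chloroplast proteins that protect membranes on freezing. Both passed the F test and both were higher in dark, against 14.7% and 4.6% of all transcripts tested. Of the 1520 transcripts above background on all 12 arrays, as both were, 688 and 207 did so when tested alone. COR15A was higher in dark by 3.35 ± 0.15 and COR15B by 2.79 ± 0.10 (log2, SE). COR15B had mean levels of 5.93, 3.72, 1.02, 4.65, 8.70 and 5.67 at 0, 4, 8, 12, 16 and 20 h, with its high at 16 h and its low at 8 h as for LTI78 and COR47. COR15A also had its highest mean at 16 h (5.73) and its lowest at 8 h (-1.74).

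Of 22 regulators of cold and ABA responses 6 had probes, and 3 of them passed the F test and were higher in dark, against 14.7% and 4.6% of all transcripts tested. Those 3 and AFP1 were above background on all 12 arrays. Of the 1520 such transcripts, tested alone, 688 passed the F test and 207 were higher in dark. ABI5, a transcription factor that acts on ABA-responsive promoters, was higher in dark by 0.76 ± 0.11 (log2, SE). ABI1 and ABI2, phosphatases that hold back ABA signalling, were higher by 0.80 ± 0.14 and 0.67 ± 0.13. ABI3, ABI4 and AFP1 did not pass the F test (adjusted p 0.091, 0.15 and 0.13). ABI2 had its highest means at 12 and 16 h (2.60 and 2.71), the 2 time points at which the second and dimmest LTI65 probes were high.

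Of 14 clock genes and phytochrome-interacting factors 12 had probes, and all 12 passed the F test, against 14.7% of all transcripts tested. In dark 7 were higher, against 4.6% of all, and 2 were lower, against 5.42%. All 12 were above background on all 12 arrays. Of the 1520 such transcripts, tested alone, 688 passed the F test and 207 were higher in dark. CCA1 and LHY, the morning repressors of the clock, had means of 6.48 and 8.01 at 4 h and of 6.55 and 8.22 at 8 h, their highest. LTI78 was mid-range at 4 h (2.37) and lowest at 8 h (-0.34), and COR47 was low at both. LHY and CCA1 were at 0.71 and 0.34 at 16 h, where LTI78, KIN1 and COR47 had their top means. By 20 h LHY and CCA1 had dropped to their own minimum, 0.12 and -0.72. LTI78 was also low then (0.66) and KIN1 was at its minimum (-4.69), whereas COR47 stayed high by its brightest probe (7.52). Whether CCA1 or LHY acts on these genes was not tested. PRR5, a pseudo-response regulator that represses CCA1 and LHY, had its highest mean at 16 h (5.16) and its lowest at 8 h (-0.09). The same held for PRR3 (3.38 and -2.14), TOC1 (5.77 and 2.30) and ABI5 (2.39 and -0.16). PRR9 and PRR7 were instead highest at 12 h (4.06 and 6.19) and lowest at 0 h (-2.84 and -0.56). The heat map of these genes sets their courses beside those of the 4 genes.

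**Figure D4:**
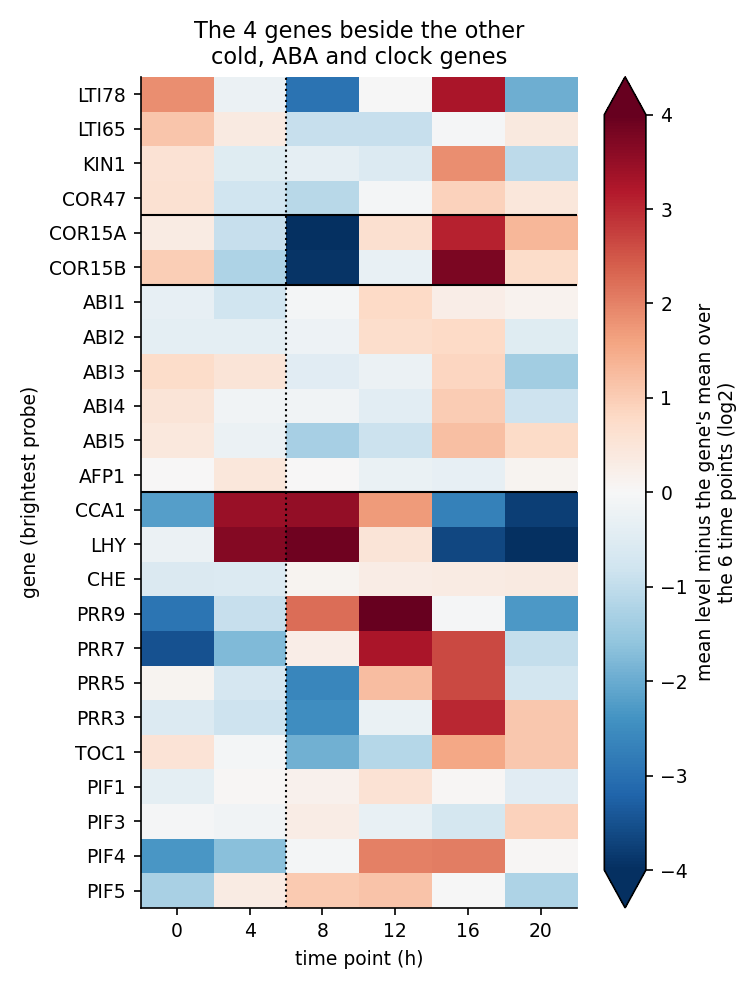
Mean level of each gene minus its own mean over the 6 time points (log2, colour scale cut at 4 units either way) by time point in hours, for LTI78, LTI65, KIN1 and COR47 (top) and the cold, ABA and clock genes with probes on the array, all from the brightest probe. Horizontal lines separate the lists and the dotted line the slides. LTI78, COR47, COR15A and COR15B have their lowest mean at 8 h and their highest at 16 h, and LHY and CCA1 are high at 4 and 8 h.

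The courses most like each gene, among transcripts with a locus code and a symbol, were found by Pearson r over the 12 arrays, which share scaling and slides, so that r is a description only. For LTI78 these were PRR5 (0.857), KIN1 (0.842) and COR15B (0.828), with 2, 3 and 7 of the transcripts tested at a higher r. Without the 16 h arrays the 3 values were 0.719, 0.674 and 0.66. For KIN1 they were LTI78 (0.842), MEE25 (0.833) and ABI4 (0.819), with 19, 27 and 41 transcripts higher. COR47 was nearest to COR15B (0.92, with 0 transcripts higher), COR15A (0.869) and ABI5 (0.856), and its r with COR15B was 0.914 without the 16 h arrays and 0.955 within slide 2.

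The nearest courses for LTI65 again depended on the probe. For the brightest probe they were GUT15 (0.799), TOC1 (0.673) and ABI5 (0.637), and 26, 131 and 167 transcripts had a higher r, and without the 16 h arrays the 3 values of r were 0.905, 0.872 and 0.86. For the second probe they were EDA3 (0.966), WRKY35 (0.943) and ABI2 (0.93), with 0, 4 and 10 transcripts higher. The dimmest probe had the same 3 names, WRKY35 (0.963), ABI2 (0.957) and EDA3 (0.952). LTI78 itself correlated with the 3 LTI65 probes, from brightest to dimmest, at 0.387, 0.645 and 0.647.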

How the data were processed

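RNA of 12 leaf samples was hybridised to 1 single-colour array each, and groups and replicate numbers come from the sample titles. Per the file headers, Agilent Feature Extraction 10.5.1.1 was used by the authors to quantify the scans. What they deposited is each spot's intensity on a linear scale, with marks for spots well above background, saturated or outlying. A series table that the authors also deposited is on the log2 scale, and its making is not stated here; against the scanner values its scale was log2 with a common centre, each column having a median of 1.37.

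The level is log2 of the processed signal minus the array's 75th percentile over the 2876 probes that stood well above background on every array. The 536 control spots and outlier marks were left out, and 0 spots were saturated. A transcript takes the value of its probe with the highest mean level and was tested where the scanner marked that probe above background on both replicates of 1 or more time points. The number of arrays limits the precision, as does signal over background for dim probes.

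limma 3.58.1 in R 4.3.3 was fitted (lmFit and eBayes) with 1 mean per time point and 6 residual degrees of freedom, with Benjamini-Hochberg adjustment over all transcripts tested and a threshold of 0.05. Log ratios within an array were tested by exact permutation, two-sided for dark minus light. For dark minus light, single arrays rather than whole time points were exchanged. Neighbours in the order of means were called apart where their arrays did not overlap and the difference was at least 2 standard errors. The tests were tried on simulated data. Alternatives were other scalings, quantile normalization, normexp with an offset of 50, the series table, other probe rules and filters, array weights, the replicate number, the slide and left-out arrays. For normexp the median signal replaced the planned mean signal, which the files do not hold.

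The 4 genes, the gene lists and the named genes were chosen with earlier results of these data known. Named genes are the 4 genes, all list members on the array and the 3 nearest courses for each gene. Gene names and neighbours come from a table of TAIR10.1; the file headers name an older build, so no coordinates are given. Promoter, protein and probe sequences were not used here, and the planned search for promoter motifs was not run.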

Additional observations from a re-analysis of the deposited data

How the results depend on the processing

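Of 709 values of the 4 genes recomputed under alternatives, 568 kept their direction and their side of the threshold, 72 lost and 37 gained a call, and 32 changed sign, of which 16 passed with neither sign. LTI78 passed the F test in all of them (6.19 to 6.24 between 16 and 8 h on leaving out 1 array), and so did KIN1 on leaving out 1 array (2.82 to 2.96). Probe alternatives, and the 10 ratios other than LTI78 to the brightest LTI65 probe, were added after seeing the data. For each result below that changed, the cause was not tested.

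LTI78 in dark minus light was 0.76 with scaling on all probes, 0.78 for the mean of probes, 0.87 without a filter, -0.55 without both 16 h arrays and 0.82 and 0.66 by its second and dimmest probe, and on leaving out 1 array 0.72 to 1.02. LTI65 (0 minus 12 h) was -0.89 for the mean of probes and -2.25 and -2.42 by its second and dimmest probe. It no longer passed at 2.01 without a filter or within slides, and ranged from 1.88 to 2.13 on leaving out 1 array. LTI65 in dark minus light was 1.07 for the mean of probes, 1.75 and 1.83 by the other probes, 0.73 on slide 2, and -0.55 to -0.19 on leaving out 1 array (passing at -0.55, without the second 16 h array). The LTI65 steps from 8 to 12 h and from 16 to 20 h turned to 1.79 and -1.78 for the mean of probes, 2.63 and -2.64 by the second and 2.74 and -3.15 by the dimmest probe. Without passing, other LTI65 steps changed sign: from 0 to 4 h to 0.31 and 0.15 by the second and dimmest probe; from 8 to 12 h to 0.182, 0.020 and 0.001 with scaling on all probes, scaling on the median and normexp (-0.20 to 0.20 on leaving out 1 array); from 12 to 16 h to -0.19 with scaling on all probes; and from 16 to 20 h to -0.092 at the low end of leaving out 1 array (up to 0.97). So did the KIN1 steps from 4 to 8 h (-0.54 by its second probe, -0.011 to 0.31 on leaving out 1 array) and from 8 to 12 h (0.20 for the mean of probes, 0.68 by its second probe), and the COR47 steps from 4 to 8 h (0.029 by its dimmest probe) and from 16 to 20 h (0.49 with scaling on all probes). KIN1 between 16 and 20 h gave 1.93 with scaling on all probes and, still passing, 1.04 with normexp. It was 1.61 for the mean of probes and 1.88 by its second probe. The second probe entered the test through 16 h alone. At 20 h neither it nor the third probe was above background, so these values give no support. KIN1 in dark minus light was 0.49 for the mean of probes and -0.70 without both 16 h arrays, and 0.13 to 0.23 on leaving out 1 array. COR47 between 16 and 8 h no longer passed at 1.14 with scaling on all probes, 2.02 within slide 2 and 2.73 by its second probe (1.79 to 2.25 on leaving out 1 array). COR47 in dark minus light gave 0.74, 1.54 and 0.88 under the same alternatives (0.76 to 0.95 on leaving out 1 array). The COR47 step from 12 to 16 h was -0.082 with scaling on all probes and -0.007 by its dimmest probe. The LTI78 to LTI65 ratio kept its call over time on leaving out 1 array (exact permutation p 0.00029 to 0.00087), and its dark minus light value was 0.59 to 1.88. That value was -0.29 for the mean of probes, -0.11 without both 16 h arrays and -0.88 and -0.96 by the second and dimmest LTI65 probe, with exact permutation p-values of 0.33 to 0.9.

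Calls over all transcripts moved far more. The F test called 487, against 211 without a filter, 136 on slide 2, 1 on slide 1 and 258 to 1278 on leaving out 1 array. Dark minus light called 331, against 133 with scaling on all probes, 157 without a filter, 28 on slide 2 and 143 to 703. From 0 to 4 h 29 were called, against 3 with scaling on all probes, 15 with scaling on the median, 18 with quantile normalization, 89 with normexp, 19 in the series table, 6 without a filter, 80 for probes above background on all arrays, 109 with array weights, 53 without both 16 h arrays, 1 on slide 1 and 4 to 53 on leaving out 1 array. From 4 to 8 h 43 were called, and 25, 28, 139, 26, 17, 138, 211 and 66 with scaling on all probes, quantile normalization, normexp, the series table, no filter, probes above background on all arrays, array weights and without both 16 h arrays (14 to 66). From 8 to 12 h 113 were called, and 14, 40, 236, 39, 25, 286 and 11 with scaling on all probes, quantile normalization, normexp, the series table, no filter, probes above background on all arrays and slide 2 alone (27 to 166). From 12 to 16 h 312 were called, and 143, 45 and 58 with no filter, array weights and slide 2 alone (148 to 1074). From 16 to 20 h 281 were called, and 474, 97, 56 and 55 with normexp, no filter, array weights and slide 2 alone (100 to 1078). The highest counts from 12 to 16 h and from 16 to 20 h came without the first 16 h array.

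No pairing of samples by replicate number was seen: deviations of same-numbered arrays correlated at -0.104 to 0.186 over 15 pairs of time points. Such correlations do not exclude a pairing. With the replicate number as a block the step from 0 to 4 h called 19 transcripts, the COR47 step from 12 to 16 h (0.98) had an adjusted p of 0.056, and the LTI78 to LTI65 ratio over time had an exact permutation p of 0.0028. The block changed no other call of the 4 genes. Results are limited by 2 arrays per time point, by slides that split 0 and 4 h from the rest, and by dim probes of LTI78 at 8 and 20 h and of KIN1.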
